A study of Homo sapiens with 12 samples.

Results

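Integrins and focal adhesion genes are the 18 integrin alpha subunit genes, the 8 integrin beta subunit genes and 21 genes of the proteins that tie integrin tails to actin. They were picked by gene symbol, with earlier results of these data known, and number 47 of the 49651 genes with counts. RNA was sequenced from D283, an established human medulloblastoma cell line, in 2 groups of 3 libraries. In the first group both tyrosine kinase genes, ABL1 and ABL2, had been inactivated genetically; the sources used here give no method. The second was the scrambled control. All cells were grown in DMEM-12 with the same supplements (10% FNS, 1% NEAA and 1% glutamine, as the labels spell them), and the sources used here do not say whether a group is 1 clone or a mixed culture. Messenger RNA was enriched and sequenced as paired 50-base reads, and the same 6 libraries were run on 2 lanes each. The 6 libraries held between 33505903 and 49034159 counts. The labels do not tell separate cultures from repeat libraries, so a p-value reflects only how far these libraries scatter, which may be technical.

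Integrins are receptors made of an alpha and a beta subunit that span the membrane and bind matrix proteins outside the cell. The alpha subunit largely sets which ligand is bound, and the short tail of the beta subunit recruits talin and kindlin, which activate the receptor. Talin, vinculin, alpha-actinin and filamin then connect the tail to actin, while paxillin, the CAS family and the complex of integrin-linked kinase (ILK), PINCH and parvin serve as platforms for signalling. ABL kinases become active when cells attach to matrix and phosphorylate several of these adaptors.

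The targeted genes were lower in the inactivated libraries. ABL1 had 62.1, 62.3 and 61.1 CPM (read counts relative to library size, scaled by the trimmed mean of M values, TMM) in inactivated libraries, against 157, 148 and 154 CPM in control libraries. ABL2 had 97.6, 112 and 102 CPM in inactivated libraries, against 144, 136 and 134 CPM in control libraries. For both genes every inactivated library lay below every control library, with log2 fold changes (inactivated over control, from edgeR) of -1.31 ± 0.043 for ABL1 and -0.41 ± 0.051 for ABL2 (SE). Of 11 markers of Group 3 medulloblastoma, the subgroup to which D283 is usually assigned, 10 were tested and NRL had no count. Among the 10, 8 rose and 2 fell, where 29.6% of all genes tested rose and 29.7% fell. Those with the lowest p were the photoreceptor genes IMPG2, ABCA4 and EYS and the developmental gene MAB21L2, with log2 fold changes of 2.24, 3.12, 2.26 and 0.85. OTX2, a homeobox gene of this subgroup, averaged 666 ± 11.4 CPM in inactivated and 830 ± 16.1 CPM in control libraries (SD, n = 3 each, as for all means here).

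Libraries of different groups stood far apart over the whole transcriptome. The chi-square of their counts per degree of freedom was 86.7 to 111, against 3.17 to 13.6 between libraries of the same group. Of 14704 genes tested with edgeR, 59.3% changed at an adjusted p under 0.05 (29.6% higher and 29.7% lower in inactivated cells), so a call alone sets no gene apart in this comparison. RNA came from whole cultures, so fewer cells that express a gene and less RNA per cell cannot be told apart.

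Of the 47 genes, 32 passed the filter on low counts and were tested, and 22 of these changed, 8 higher and 14 lower in inactivated cells. That is 68.8% of those tested, beside 59.3% of all genes, so the number called is near the background. Their median log2 fold change was -0.20, beside 0.0031 over all genes tested; it was -0.12 without control replicate 1 and -0.11 with lane 2 alone. Sizes varied widely, between a log2 fold change of -3.09 for ITGA7 and 4.03 for ITGA5. Of the 32 tested members, 8 were called and differed at least 2-fold, beside 12.8% of all genes tested. By role, 2 of 10 tested alpha subunits rose and 5 fell, and 3 of 4 beta subunits fell. Of the genes inside the cell, 3 of 3 talins and kindlins rose, 3 of 5 genes of the ILK complex fell, and adaptors (1 higher and 1 lower of 4) and actin linkers (2 higher and 2 lower of 6) went both ways. For 23 of the 32, inactivated and control levels were fully separated, beside 63.2% of all genes. Against a fold of 1.5 as the null hypothesis, edgeR called 11 of the 32, beside 15.5% of all genes. These were ITGA1, ITGA5, NEDD9 and TNS1, all higher, and ITGA2, ITGA3, ITGA6, ITGA7, ITGB8, PARVA and VCL, all lower.

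**Figure D1:**
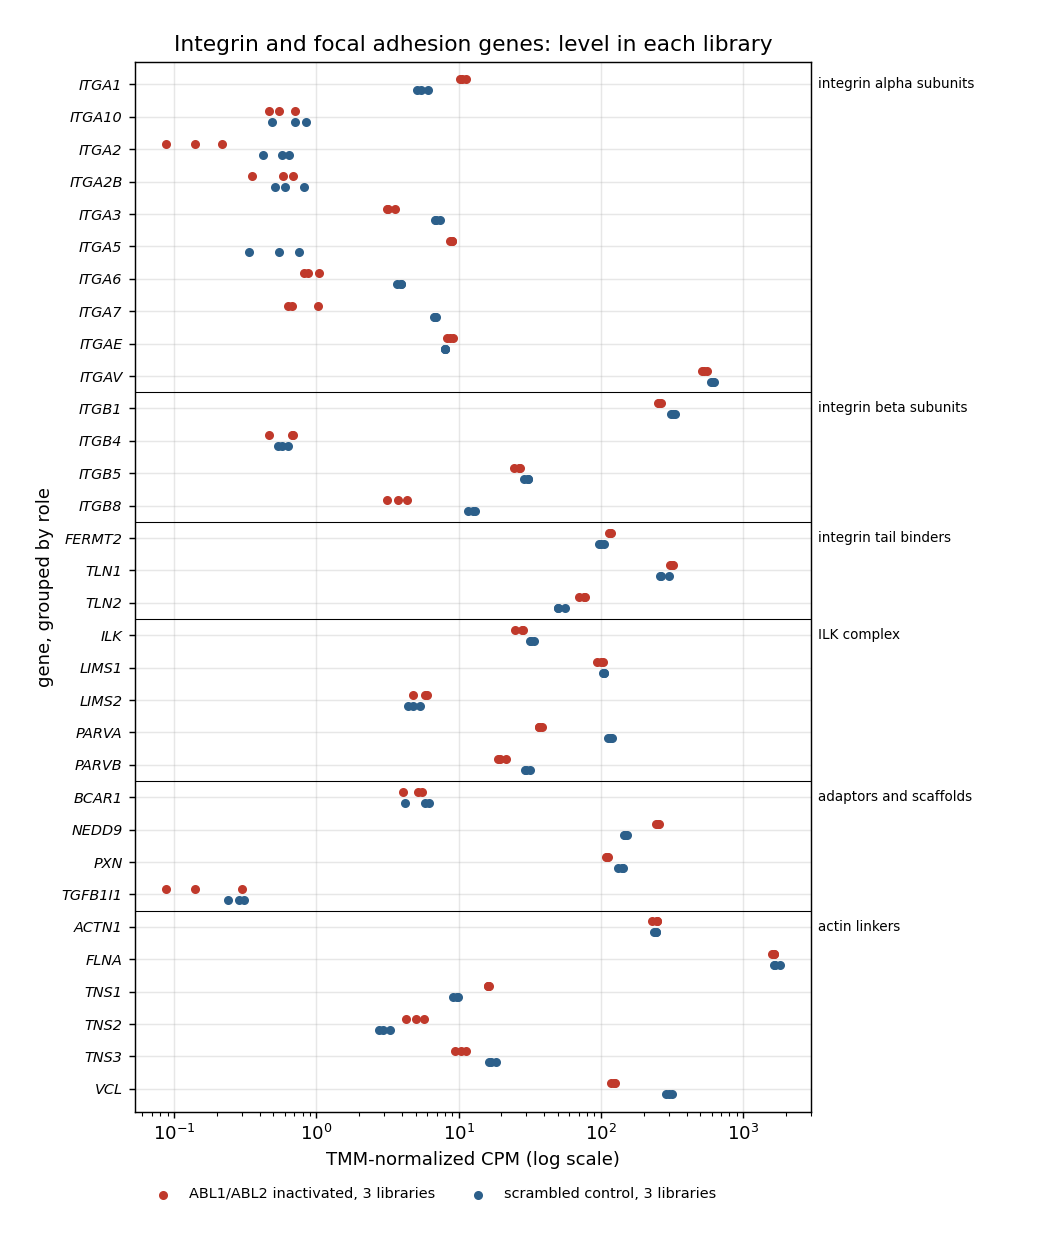
Level of each of the 32 tested integrin and focal adhesion genes in each library, in TMM-normalized CPM on a log scale, with the 3 inactivated libraries (red) above the 3 control libraries (blue) and genes grouped by role. The libraries of a group lie close together for most genes, and ITGA5 (log2 fold change 4.03), ITGA7 (-3.09) and ITGA6 (-2.08) show wide gaps between the groups.

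The alpha subunit pool was made up mainly of ITGAV in both groups. Compared per length, as CPM per kilobase of exon, ITGAV reached 74.0 ± 2.86 in inactivated and 84.1 ± 1.74 in control libraries. This was 91.8% ± 0.355 of all alpha subunit mRNA per length in inactivated libraries and 92.8% ± 0.205 in control libraries. ITGA9, whose count is not read as an expression level (explained further on), entered this total as 0. ITGAV, whose protein pairs with several beta subunits and binds ligands with the RGD sequence such as vitronectin and fibronectin, had 518, 559 and 530 CPM in inactivated libraries, against 611, 621 and 596 CPM in control libraries. All inactivated libraries lay below all controls, and the difference was small (log2 fold change -0.18 ± 0.043, 95% interval -0.28 to -0.094, adjusted p 0.00119).

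ITGA5, which encodes the alpha subunit of the classical fibronectin receptor, rose more than any other tested member. The gene lies on the reverse strand of chr12:54395261-54419266 (GRCh38.p14). It had 9, 8.71 and 9.03 CPM in inactivated libraries, against 0.338, 0.547 and 0.753 CPM in control libraries. The inactivated libraries lay close together, while the control values rest on few counts and spread over a wider relative range. The log2 fold change was 4.03 ± 0.17 with a 95% interval of 3.68 to 4.38 (edgeR adjusted p 1.45e-13), a 16.3-fold higher level. Per kilobase, ITGA5 reached 2.06 ± 0.041 in inactivated and 0.126 ± 0.048 in control libraries, which placed it after ITGAV and ITGAE (2.26 ± 0.107) in inactivated cells. In control cells it came after ITGAV, ITGAE, ITGA3, ITGA7, ITGA6 and ITGA1, at a level that overlapped those of ITGA2B and ITGA10.

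The RefSeq promoter windows of ITGA5 and VCL (GRCh38.p14, 250 bases before to 50 after the start) are shown because ITGA5 had the largest rise and VCL, the vinculin gene described further on, a large fall at high expression. ITGA7 and PARVA, which fell more than VCL, had no window. Capitals mark matches on either strand to GGAATG, the core bound by TEAD factors, and TGANTCA, the AP-1 motif, which do not overlap each other here.
ITGA5 promoter, chr12:54419217-54419516, reverse strand: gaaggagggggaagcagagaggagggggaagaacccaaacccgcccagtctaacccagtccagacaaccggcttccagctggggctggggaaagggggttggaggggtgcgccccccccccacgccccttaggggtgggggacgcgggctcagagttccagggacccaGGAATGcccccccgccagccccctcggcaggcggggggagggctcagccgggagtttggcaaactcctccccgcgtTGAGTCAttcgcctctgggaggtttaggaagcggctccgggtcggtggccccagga
VCL promoter, chr10:73997866-73998165, forward strand: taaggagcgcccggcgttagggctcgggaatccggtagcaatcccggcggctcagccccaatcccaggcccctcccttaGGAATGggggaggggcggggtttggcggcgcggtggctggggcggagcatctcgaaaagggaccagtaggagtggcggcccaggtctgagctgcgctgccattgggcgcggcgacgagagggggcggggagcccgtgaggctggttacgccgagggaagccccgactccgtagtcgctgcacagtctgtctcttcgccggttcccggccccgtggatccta
In the ITGA5 window GGAATG begins 82 bases and TGANTCA 6 bases before the start, so that the last base of TGANTCA is the start base itself. In the VCL window GGAATG begins 171 bases before the start. Of 35116 windows of this length in the table, 14% held GGAATG and 7.71% held TGANTCA. The CArG box, the motif of serum response factor, was found in neither window and in 1.29% of all windows. The windows of ITGA2, ITGA6 and ITGB8, which also fell more than VCL, held none of these motifs.

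ITGA1, a collagen-binding subunit on chromosome 5, also rose. It had 10.3, 10.5 and 11.3 CPM in inactivated libraries, against 6.13, 5.47 and 5.12 CPM in control libraries. The groups did not overlap, and the log2 fold change was 0.93 ± 0.090 (adjusted p 4.1e-08). It shares 4.65% of its exon bases with PELO on the same strand, which averaged 44.6 CPM in inactivated and 40.5 CPM in control libraries. The neighbouring gene ITGA2, another collagen receptor, fell. It had 0.219, 0.141 and 0.0877 CPM in inactivated libraries, against 0.647, 0.576 and 0.421 CPM in control libraries. Its log2 fold change was -1.86 ± 0.39 (adjusted p 0.00043), and its lowest library lies at about the 3-count floor of these libraries, 0.0605 to 0.0903 CPM.

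The 3 laminin-binding subunits all fell. ITGA7, best known from muscle, had 0.629, 1.03 and 0.672 CPM in inactivated libraries, against 6.92, 6.68 and 6.86 CPM in control libraries. ITGA6, which marks many stem and progenitor cells, had 1.04, 0.826 and 0.877 CPM in inactivated libraries, against 3.71, 3.92 and 3.94 CPM in control libraries. ITGA3, a laminin receptor of epithelia and migrating neurons, had 3.14, 3.18 and 3.57 CPM in inactivated libraries, against 7.40, 6.97 and 6.80 CPM in control libraries. No inactivated library reached any control library for these genes. The falls were 8.50-fold for ITGA7 (log2 fold change -3.09 ± 0.16, adjusted p 4.16e-12), 4.24-fold for ITGA6 (-2.08 ± 0.16, adjusted p 1.44e-09) and 2.15-fold for ITGA3 (-1.10 ± 0.10, adjusted p 3.31e-08). ITGA7 shares 44 exon bases with METTL7B on the opposite strand, whose mean was 0.739 CPM in inactivated and 5.27 CPM in control libraries. The sources used here do not say how strands were treated in counting.

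Summed by the ligand class of the protein, a textbook grouping applied after the levels were seen, the smaller part of the alpha pool differed in make-up. The laminin-binding subunits summed to 0.958 ± 0.0339 CPM per kilobase in inactivated and 3.28 ± 0.0549 in control libraries. The RGD-binding subunits other than ITGAV summed to 2.23 ± 0.043 CPM per kilobase in inactivated and 0.323 ± 0.012 in control libraries. This difference came from ITGA5 alone (2.06 in inactivated and 0.126 in control libraries), while ITGA2B (0.156 in inactivated and 0.185 in control libraries) and ITGA8, at most 0.0113 in either group, were not higher. For the collagen-binding subunits the sums were 1.12 ± 0.0319 in inactivated and 0.714 ± 0.0603 in control libraries. Here ITGA1 alone was higher (0.994 in inactivated and 0.519 in control libraries), apart from 1 count of ITGA11, while ITGA2 had fallen and ITGA10, not called, had 0.106 in inactivated and 0.125 in control libraries. With ITGAV included, the RGD-binding sum was 76.2 ± 2.87 in inactivated and 84.4 ± 1.73 in control libraries, and the sum of all alpha subunits was 80.6 ± 2.85 in inactivated and 90.6 ± 1.74 in control libraries. These sums are descriptions, with no test.

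**Figure D2:**
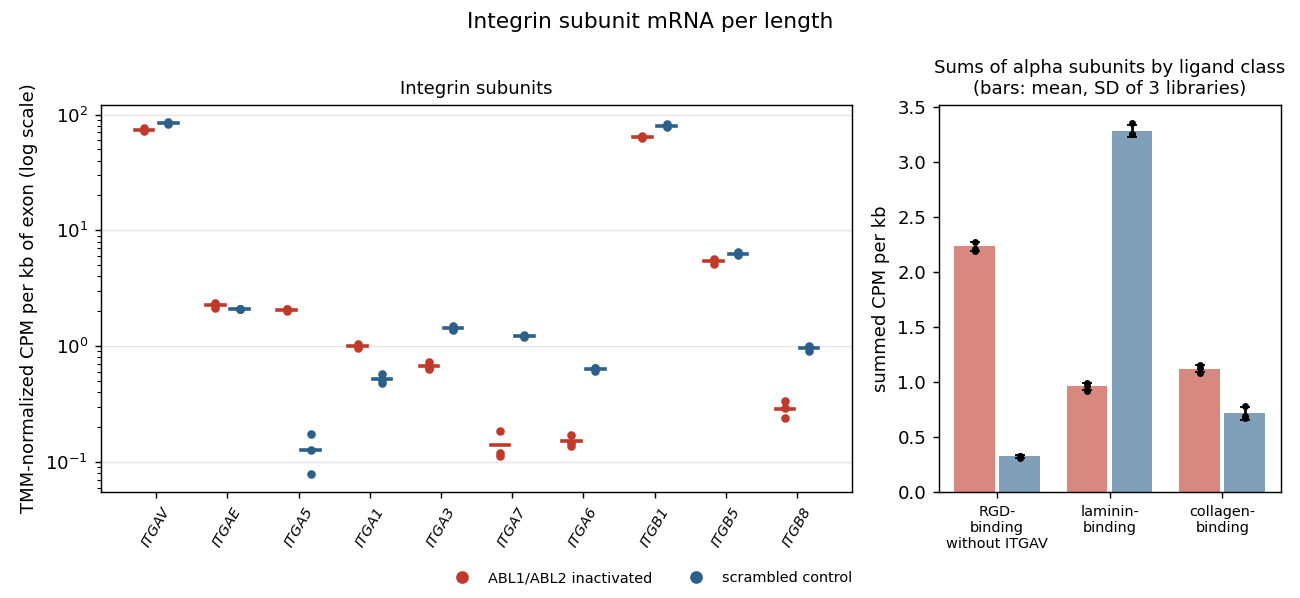
Left, level per length (TMM-normalized CPM per kilobase of exon, log scale) of the main integrin subunits in each inactivated (red) and control (blue) library, with a line at the group mean. Right, summed level per length of alpha subunits by ligand class, as mean and SD of 3 libraries with each library as a dot: the laminin-binding sum is 0.958 in inactivated and 3.28 in control libraries, and the RGD-binding sum without ITGAV is 2.23 in inactivated and 0.323 in control libraries, of which ITGA5 alone makes up 2.06 in inactivated and 0.126 in control libraries.

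Of the other alpha subunits, ITGAE, known from lymphocytes in epithelia, averaged 8.72 ± 0.412 CPM in inactivated and 8.06 ± 0.0298 CPM in control libraries and was not called (log2 fold change 0.11, 95% interval -0.06 to 0.28, adjusted p 0.255), although its groups did not overlap. ITGA10 and ITGA2B were low, with log2 fold changes of -0.21 ± 0.29 and -0.23 ± 0.30 that did not pass the test. On chromosome 17, the 164 other tested genes within 5 Mb of ITGA2B stood at 0.55 in the median (log2). The 8 alpha subunits left untested had at most 25 counts in a group of libraries. ITGAM, of myeloid cells, had 0, 1 and 0 counts in inactivated libraries, against 13, 5 and 7 in control libraries, a ratio of 0.0344 (95% counting interval 0.000837 to 0.21). ITGA4 had 11 counts over the inactivated and 1 over the control libraries, and ITGAX had 19 in inactivated and 5 in control libraries. ITGA4 shares 21.4% of its exon bases with CERKL on the opposite strand (1.26 CPM in inactivated and 1.73 CPM in control libraries). ITGA8 had 7 and 8, ITGAL had 10 and 10, and ITGA11 had 1 and 0 counts in inactivated and control libraries, while ITGA9 and ITGAD had none in any library. For ITGA9 this is not read as absence of expression, as explained further on.

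Among beta subunits, ITGB1 made up 91.6% ± 0.253 of the pool per length in inactivated libraries and 91.6% ± 0.413 in control libraries. ITGB1, the partner of most matrix-binding alpha subunits, had 253, 255 and 264 CPM in inactivated libraries, against 323, 331 and 311 CPM in control libraries. It was lower in every inactivated library, by 1.25-fold (log2 fold change -0.32 ± 0.042, adjusted p 1.87e-06). The 28 other tested genes within 5 Mb of ITGB1 stood at -0.12 in the median, and the difference between ITGB1 and them was -0.20. ITGB5, a partner of ITGAV in the vitronectin receptor, had 26.5, 24.7 and 27.2 CPM in inactivated libraries, against 30.6, 29.0 and 30.9 CPM in control libraries. Its log2 fold change was -0.21 ± 0.057 (adjusted p 0.00374), beside -0.32 for ITGB1. The ITGB5 call was lost when only lane 2 was used (adjusted p 0.0603).

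ITGB8 fell most among the beta subunits. Its protein pairs with ITGAV to bind and activate latent TGF-beta, and it is well known from neural progenitors and glia. Inactivated libraries had 3.77, 4.37 and 3.13 CPM, against 12.7, 13 and 11.7 CPM in control libraries. The groups were widely separated (log2 fold change -1.71 ± 0.10, adjusted p 5.65e-11), and the share of ITGB8 in the beta pool per length was 0.414% ± 0.0764 in inactivated and 1.10% ± 0.0296 in control libraries. Without scaling for length, the ITGB8 share was 1.31% in inactivated and 3.41% in control libraries. ITGB4, which pairs with ITGA6 in hemidesmosomes, averaged 0.606 ± 0.124 CPM in inactivated and 0.581 ± 0.049 CPM in control libraries and was not called (95% interval -0.55 to 0.63). ITGB3 was left untested with 27 counts in inactivated and 9 in control libraries, a ratio of 2.58 (95% counting interval 1.18 to 6.23). ITGB2, ITGB6 and ITGB7 had at most 3 counts in a group. ITGB7 shares 52.4% of its exon bases with ZNF740 on the opposite strand (54.5 CPM in inactivated and 53.8 CPM in control libraries). The summed beta pool was 69.9 ± 1.6 CPM per kilobase in inactivated and 87.5 ± 2.31 in control libraries.

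Talins and kindlin, which bind the beta tail and switch integrins to the active state, were all modestly higher. TLN2, the talin of brain and muscle, had 70.7, 77.5 and 75.8 CPM in inactivated libraries, against 55.6, 49.7 and 50.2 CPM in control libraries. Its log2 fold change was 0.53 ± 0.052 (adjusted p 5.89e-08), with no overlap. The widely expressed talin TLN1 averaged 315 ± 8.67 CPM in inactivated and 276 ± 21.7 CPM in control libraries (0.19 ± 0.050, adjusted p 0.00309), and the lowest inactivated library, 305 CPM, lay just above the highest control, 301 CPM. FERMT2, which encodes kindlin-2, averaged 116 ± 0.807 CPM in inactivated and 101 ± 4.12 CPM in control libraries (0.20 ± 0.043, adjusted p 0.000586). FERMT1, the kindlin of epithelia, had no count in any library.

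In the ILK complex the parvins fell. PARVA, the main actin-binding partner of ILK outside blood cells, lies on the forward strand of chr11:12376436-12535356 and had 36.9, 37.0 and 38.5 CPM in inactivated libraries, against 120, 116 and 112 CPM in control libraries. It was 3.11-fold lower (log2 fold change -1.64 ± 0.046, 95% interval -1.73 to -1.54), with the smallest adjusted p of all members, 6.4e-16. PARVB had 19.6, 18.9 and 21.5 CPM in inactivated libraries, against 30.0, 29.1 and 31.8 CPM in control libraries (-0.60 ± 0.062, adjusted p 9.96e-08). The inactivated libraries were below the controls for both genes, and per kilobase PARVA averaged 4.20 in inactivated and 13 in control libraries while PARVB averaged 3.12 in inactivated and 4.73 in control libraries.

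ILK itself, a pseudokinase that joins parvin and PINCH to the beta tail, averaged 27.1 ± 1.79 CPM in inactivated and 32.6 ± 1.17 CPM in control libraries (-0.27 ± 0.059, adjusted p 0.000578). Of its exon bases 69.7% overlap TAF10 on the opposite strand (11.1 CPM in inactivated and 10.4 CPM in control libraries), so its value is uncertain. The PINCH genes LIMS1 and LIMS2 did not pass the test, with log2 fold changes of -0.077 (95% interval -0.17 to 0.016) and 0.20 (95% interval -0.038 to 0.44). LIMS1 averaged 99.2 ± 4.71 CPM in inactivated and 105 ± 1.53 CPM in control libraries. The near-identical copies LIMS3 and LIMS4 had 2 and 1 counts over all libraries, and the value of LIMS1 is uncertain to the extent that reads fit several copies.

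Of the adaptors, NEDD9 rose and PXN fell. NEDD9, a CAS family scaffold that ABL and other kinases phosphorylate, had 253, 246 and 256 CPM in inactivated libraries, against 153, 149 and 145 CPM in control libraries. The groups did not overlap (log2 fold change 0.76 ± 0.041, adjusted p 1.01e-11). On chromosome 6, the 39 other tested genes within 5 Mb of NEDD9 stood at 0.50 in the median (log2), which is 0.26 less than NEDD9. PXN, which encodes the adaptor paxillin, averaged 111 ± 2.2 CPM in inactivated and 139 ± 5.77 CPM in control libraries (-0.33 ± 0.043, adjusted p 2.59e-06). TGFB1I1, a paxillin relative, was barely expressed, at 0.177 ± 0.111 CPM in inactivated and 0.279 ± 0.0351 CPM in control libraries, and did not pass (adjusted p 0.214).

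VCL, which encodes vinculin, fell most among the actin linkers. Vinculin binds talin that is stretched under load and adds further links to actin. The gene lies on the forward strand of chr10:73998116-74121363 and had 117, 124 and 126 CPM in inactivated libraries, against 314, 300 and 287 CPM in control libraries. The groups were far apart, and VCL was 2.46-fold lower (log2 fold change -1.30 ± 0.045, 95% interval -1.39 to -1.20, adjusted p 1.48e-14). VCL shares 16.6% of its exon bases with AP3M1 on the opposite strand, which averaged 140 CPM in inactivated and 121 CPM in control libraries.

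The tensins, which link integrin tails to actin in fibrillar adhesions, went in different directions. TNS1 had 16.3, 16.1 and 16.2 CPM in inactivated libraries, against 9.12, 9.73 and 9.84 CPM in control libraries. TNS2 had 5.71, 5.06 and 4.30 CPM in inactivated libraries, against 2.93, 2.74 and 3.31 CPM in control libraries. TNS3 had 9.49, 11.3 and 10.4 CPM in inactivated libraries, against 18.4, 16.8 and 16.4 CPM in control libraries. TNS1 and TNS2 were thus higher in every inactivated library and TNS3 was lower in every one. Log2 fold changes were 0.76 ± 0.069 for TNS1 (adjusted p 1.69e-08), 0.75 ± 0.13 for TNS2 (6.6e-05) and -0.72 ± 0.077 for TNS3 (1.58e-07). TNS2 shares 157 exon bases with TNS2-AS1, which averaged 2.07 CPM in inactivated and 0.856 CPM in control libraries.

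Of the members that crosslink actin, FLNA and ACTN1 were tested and did not pass. FLNA, the filamin that crosslinks actin under the membrane, was the most abundant member per kilobase (193 ± 4.08 in inactivated and 201 ± 12.5 in control libraries), with 1640 ± 34.7 CPM in inactivated and 1710 ± 106 CPM in control libraries, with a 95% interval of the log2 fold change of -0.17 to 0.038. ACTN1, an alpha-actinin, averaged 241 ± 11.5 CPM in inactivated and 241 ± 4.71 CPM in control libraries, with an interval of -0.096 to 0.088.

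For 4 members the table holds a second entry of the same symbol on an alternate locus or patch of the genome, and their counts are not read as expression levels here. ACTN4, an alpha-actinin of most cell types, had 7 counts in inactivated and 7 in control libraries, and the adhesion LIM protein gene ZYX had 1 and 3. ITGA9 had none, and BCAR1, the founding CAS scaffold, averaged 4.94 ± 0.773 CPM in inactivated and 5.40 ± 1.06 CPM in control libraries (adjusted p 0.403). Over all 6 libraries the second entry of BCAR1 had 209 counts beside 1141 for the first. Of 1621 protein-coding genes with a second entry, 76.1% had fewer than 20 counts over all libraries, beside 29.5% of 18073 genes with 1 entry. The treatment of reads that fit several places is not stated in these sources, and its part in the low counts was not tested.

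**Figure D3:**
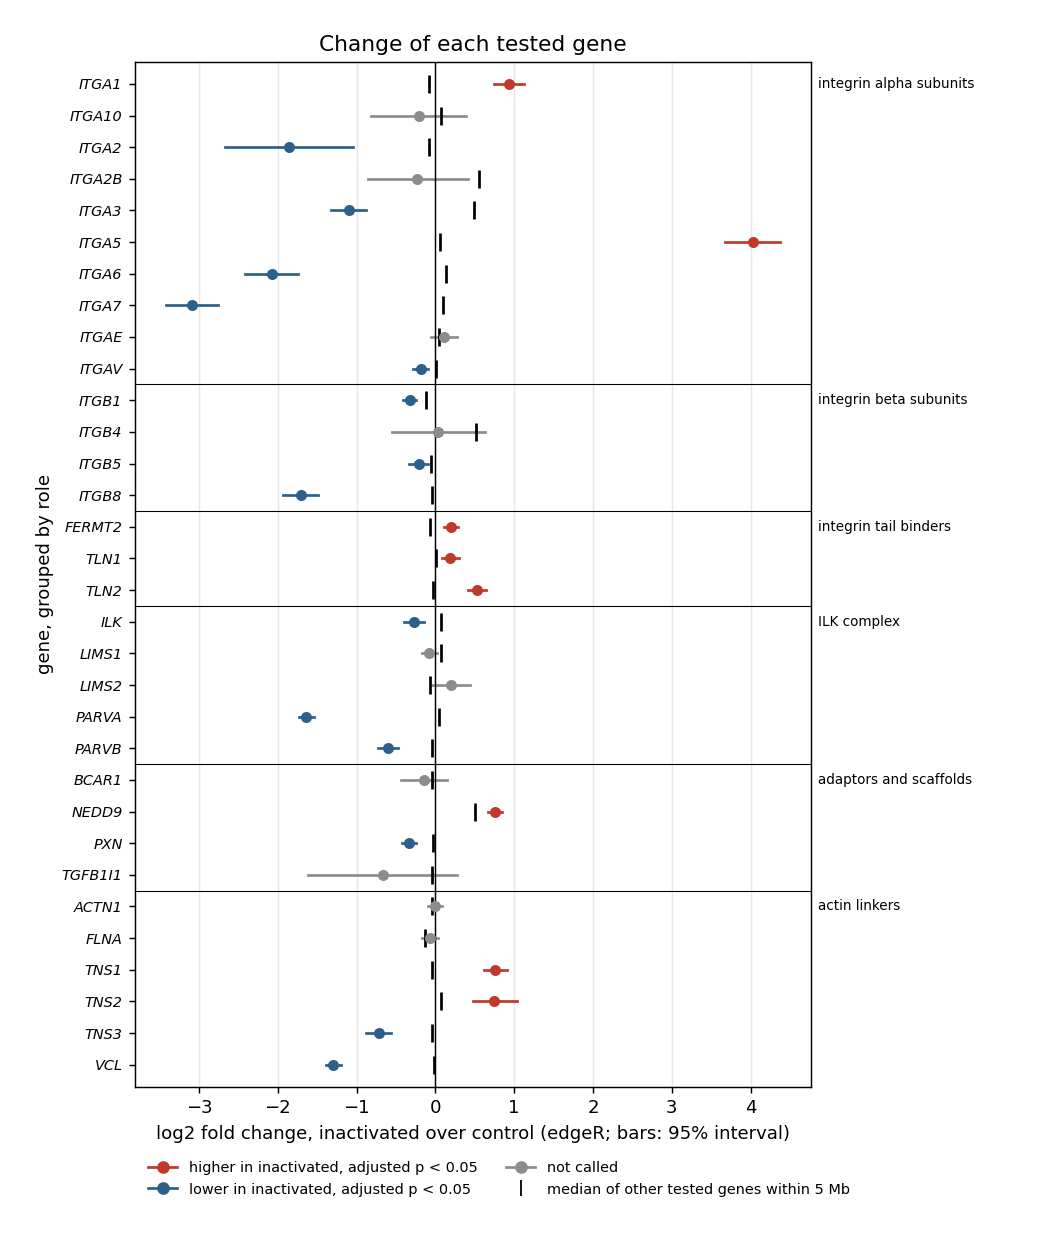
Log2 fold change (inactivated over control) of each tested member with its 95% interval from edgeR, coloured by call, and a black bar at the median of the other tested genes within 5 Mb. ITGA5 lies farthest to the right at 4.03 and ITGA7 farthest to the left at -3.09, and the black bars stay near 0 except for ITGA2B, ITGA3, ITGB4 and NEDD9.

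Each member was set beside the other tested genes within 5 Mb of it. For 4 tested members the median of the neighbours was at least 0.2 in size, namely ITGA2B, ITGA3 and ITGB4 on chromosome 17 and NEDD9 on chromosome 6. ITGA3 fell while its 79 neighbours stood at 0.49 in the median, so that it was -1.59 relative to them. ITGA5 had 164 neighbours with a median of 0.058, and ITGA7 had 146 with a median of 0.10. All 22 called members had the same sign relative to their neighbours as in the test.

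Genes around the members moved in both directions. Of 36 integrin ligands 25 were tested, of which 15 rose, 8 fell and 2 missed the threshold (median log2 fold change 0.21). Over all genes tested, 59.3% changed, 29.6% higher and 29.7% lower. FN1, which encodes fibronectin, rose to 16.9 ± 1.4 CPM in inactivated libraries, against 4.52 ± 0.431 CPM in control libraries, and FBN1, the microfibril protein fibrillin, rose to 98.0 ± 1.26 CPM, against 55.0 ± 4.69 CPM in control libraries. THBS1, a thrombospondin, fell to 171 ± 2.89 CPM in inactivated libraries, against 343 ± 15.3 CPM in control libraries. NID1, a basement membrane linker of laminin and collagen, fell to 5.04 ± 0.437 CPM in inactivated libraries, against 17 ± 0.411 CPM in control libraries.

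Of 33 focal adhesion kinases and adaptors outside the member list, 31 were tested. Among these 10 rose, 12 fell and 9 missed the threshold (median -0.03), beside 59.3% of all genes that changed. PTK2, the focal adhesion kinase gene, has no count values in these data. This is a missing value and not a measured absence of reads, so its level is unknown. CD2AP, an endocytic adaptor, rose to 97.9 ± 6.32 CPM in inactivated libraries, against 51.4 ± 1.61 CPM in control libraries, and its relative SH3KBP1 fell to 13.4 ± 0.352 CPM, against 43.0 ± 0.999 CPM in control libraries. PTPN12, a phosphatase that acts on CAS proteins and paxillin, fell to 33.5 ± 0.581 CPM in inactivated libraries, against 59.0 ± 2.50 CPM in control libraries. GRB2, a receptor adaptor, rose to 178 ± 5.05 CPM in inactivated libraries, against 111 ± 1.66 CPM in control libraries. For 3 of these 4 the genes within 5 Mb stood apart from 0 in the same direction, with medians of 0.60 around CD2AP, 0.51 around GRB2 and -1.14 around PTPN12, the last beyond its own -0.82.

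Of 28 LIM domain and actin linkers 24 were tested, and 9 rose, 5 fell and 10 did not pass (median 0.07). Beside these, 59.3% of all genes changed. SORBS3, which encodes the vinculin-binding protein vinexin, rose to 8.46 ± 0.316 CPM in inactivated libraries, against 0.667 ± 0.0715 CPM in control libraries (log2 fold change 3.66 ± 0.14, adjusted p 4.55e-14). PDLIM1 rose to 18.9 ± 1.04 CPM, LASP1 to 729 ± 24.7 CPM and EVL to 60.8 ± 1.98 CPM in inactivated libraries, against 9.79 ± 0.193 CPM for PDLIM1, 508 ± 9.46 CPM for LASP1 and 37.6 ± 1.29 CPM for EVL in control libraries. LASP1 was at 0.52 and its neighbours at 0.49 in the median (log2). Of 10 other members of the same protein families 4 were tested, and 2 rose, 1 fell and 1 did not pass (median -0.06). The share of all genes that changed was 59.3%. FLNC, a filamin of muscle, rose to 99.8 ± 2 CPM in inactivated libraries, against 28.9 ± 1.94 CPM in control libraries (1.79 ± 0.051, adjusted p 9.08e-16). ACTN3, an alpha-actinin of muscle, fell to 0.529 ± 0.115 CPM in inactivated libraries, against 0.921 ± 0.338 CPM in control libraries.

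All 29 genes for regulators and lateral partners of integrins were tested, and 9 rose, 8 fell and 12 did not pass (median -0.01). Beside these, 59.3% of all genes changed. APBB1IP, which brings talin to the membrane, rose to 7.90 ± 0.345 CPM in inactivated libraries, against 4.26 ± 0.375 CPM in control libraries. KRIT1, which binds an inhibitor of ITGB1, rose to 59.2 ± 2.09 CPM, against 44.5 ± 1.14 CPM in control libraries. The tetraspanin CD63 fell to 184 ± 11.9 CPM in inactivated libraries, against 316 ± 13.3 CPM in control libraries, and ARF6, a GTPase of integrin recycling, fell to 150 ± 2.88 CPM, against 211 ± 6.57 CPM in control libraries.

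Of 34 actomyosin genes and targets of serum response factor, 33 were tested, and 14 rose, 9 fell and 10 did not pass (median 0.09). Beside these, 59.3% of all genes changed. MYL9, a myosin light chain, rose to 13.4 ± 1.72 CPM in inactivated libraries, against 2.10 ± 0.0918 CPM in control libraries, and the actin-binding gene TAGLN rose to 30.2 ± 2.22 CPM, against 8.78 ± 0.517 CPM in control libraries. LIMK1, a kinase that inhibits cofilin, fell to 14.3 ± 0.790 CPM in inactivated libraries, against 34.8 ± 0.969 CPM in control libraries, a log2 fold change of -1.28 where its neighbours had a median of -1.14. The calponin CNN3 fell to 289 ± 8.39 CPM in inactivated libraries, against 538 ± 9.05 CPM in control libraries. Every gene said here to have risen or fallen passed edgeR's test adjusted over all 14704 genes.

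Markers of other cell types were summed per library. The 9 leukocyte genes reached 0.766 to 1.53 CPM in inactivated and 0.979 to 1.51 CPM in control libraries, and CD68, the 1 tested, was not called. The 6 platelet genes reached at most 0.0585 CPM in inactivated and 0.0903 CPM in control libraries. For 11 fibroblast and mesenchymal genes the sums were 48.2 to 51.9 CPM in inactivated and 58.5 to 61.3 CPM in control libraries, with COL3A1 at 0 in all 6. Of these, 8 were tested, and 2 rose (COL1A1 among them, log2 fold change 0.89) and 5 fell (DCN at -1.75, PDGFRB at -0.79 and PRRX1 among them). Over all genes tested, 29.6% rose and 29.7% fell. PRRX1 averaged 0.0182 CPM in inactivated and 1.89 CPM in control libraries. Sums for 8 endothelial genes were 13.7 to 15.8 CPM in inactivated and 6.85 to 7.8 CPM in control libraries. Of 3 tested, KDR (1.92) and EGFL7 (0.63) rose, while the defining genes PECAM1, CDH5, TEK and ERG averaged at most 0.0668 CPM in either group. The 8 epithelial genes summed to 236 to 276 CPM in inactivated and 18.9 to 21.3 CPM in control libraries. The keratin KRT8 made up most of these sums and rose to 252 ± 20.1 CPM in inactivated libraries, against 18.6 ± 1.21 CPM in control libraries. KRT18 rose (3.73) and KRT7 fell (-0.68), while the defining genes EPCAM and CDH1 averaged at most 0.0388 CPM in either group. The part of these marker sums in the results above was not tested.

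**Figure D4:**
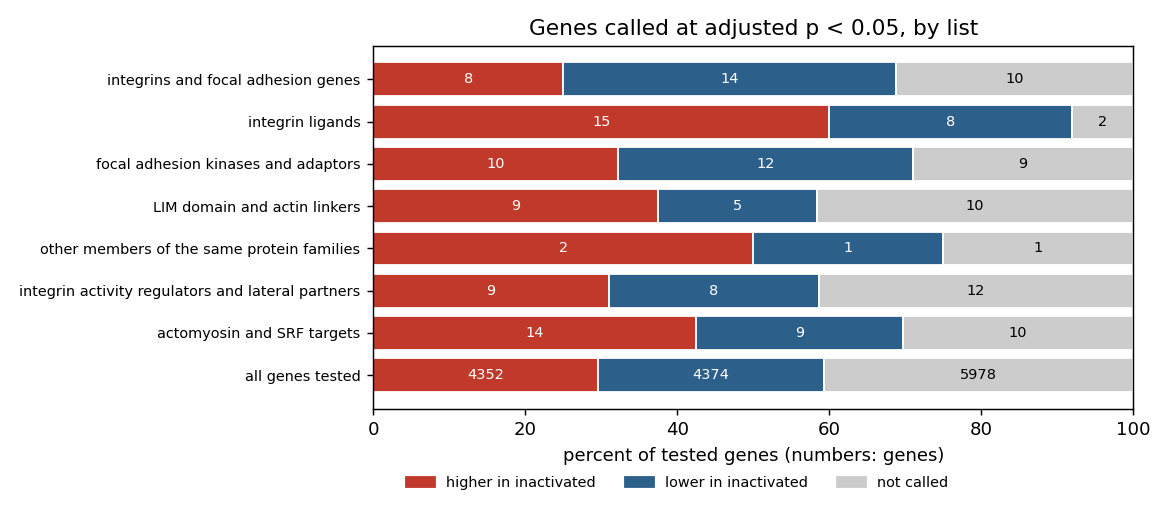
Percent of tested genes higher (red), lower (blue) or not called (grey) in inactivated against control cells at an edgeR adjusted p under 0.05, for the integrin and focal adhesion genes, the surrounding lists and all genes tested, with the number of genes in each bar. Among the members 14 were lower and 8 higher, and among integrin ligands 15 were higher and 8 lower, beside 4374 lower and 4352 higher of all genes.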

How the data were processed

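RNA was measured in 12 samples, which are 6 libraries of D283 cells on 2 lanes each. The authors deposited unnormalized whole-number counts for each lane in a table of 49677 genes, of which 26 have empty cells and were left out. The deposited table also gives exon length in bases. Per the submitters' processing notes, reads were handled with STAR 2.7.2b, featureCounts 1.6.3, DESeq2 1.36.0, FastQC 0.11.9 and MultiQC 1.11 (roles and order not given) and the build GRCh38.p14. Strand and multiple placement settings are not given in the sources used here.

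Lanes were summed per library; between lanes, chi-square over degrees of freedom was 1.13 to 1.21. Genes were filtered with filterByExpr (minimum count 10, minimum total count 15) and compared with edgeR 4.0.16 by the two-sided quasi-likelihood F test with group as the only term. P-values were adjusted by Benjamini and Hochberg over all genes tested, with a threshold of 0.05. A gene is said to rise, fall or change only if it passes. SE and 95% intervals come from the fit. Counting intervals are exact binomial ones and, like the floor of 3 counts, cover counting error only. Overlaps of exons were found with bedtools 2.31.1. Of the 47 members 36 had a RefSeq promoter window. DESeq2 1.42.0, limma 3.58.1, other scalings, filters, single lanes and left-out libraries were tried as alternatives.

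The members and lists were chosen with earlier results of these data known. All members and both targeted genes are named. Each list gave up to 4 genes with the lowest p past the threshold, or 2 by level where none passed, and other markers are named only as defining genes; OTX2 was added as such. A result that this rule would name is not reported here. Genes of overlapping exons and copies were named for some members and not for all.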

Additional observations from a re-analysis of the deposited data

How the results depend on the processing

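Of the 22 calls, all 22 were kept with the size factors of DESeq2 or upper quartile scaling in edgeR, with limma-voom and with each library left out, and all 22 were also called by the Wald test of DESeq2 and without a filter. The last pair of settings added ITGAM, for 23 calls, of 39 members tested by the Wald test and 44 without a filter. Of all genes, 40.9% were called by the Wald test and 34.3% without a filter. The share was 59.4% with the size factors of DESeq2 in edgeR and 59.1% with upper quartile scaling or limma-voom. ITGA2 was no longer tested with at least 1 CPM in 3 libraries or with single lanes, and ITGB5 lost its call in lane 2 (-0.15). Leaving out 1 library gave 22 to 23 calls, 8 to 9 higher and 14 lower, the added one being LIMS2 without inactivated replicate 3 (0.29, adjusted p 0.0461). These fits tested 32 members each and called 52.8% to 58.4% of all genes. Against a fold of 1.5, 11 members of 32 were called, 4 higher and 7 lower, beside 15.5% of all genes. The median log2 fold change of the members was -0.11 with lane 2 alone and -0.25 to -0.12 with 1 library left out (-0.12 without control replicate 1), where fewer members or libraries entered. Under other scalings, single lanes or a library left out, signs turned for 3 genes that were not called. ACTN1 had 0.01 with upper quartile scaling, 0.0091 in lane 1, 2e-05 in lane 2 and -0.025 to 0.038 with 1 library left out, ITGB4 had -0.38 in lane 1 and -0.062 to 0.23 with 1 library left out, and ITGA10 had 0.063 in lane 1. Relative to the median of genes within 5 Mb, the uncalled FLNA (0.065), ACTN1 (0.037) and ITGB4 (-0.47) also had the opposite sign. ABL1 stayed between -1.34 and -1.28 and ABL2 between -0.47 and -0.36 with 1 library left out. Without scaling for length, ITGAV was 93.9% of the alpha pool in inactivated and 94.7% in control libraries, ITGA5 1.56% and 0.0852%, ITGA7 0.135% and 1.06%, and ITGB1 89.3% and 88.1% of the beta pool. Levels near the floor of 3 counts, as for ITGA2, ITGAM and TGFB1I1, are limited by depth. No other scaling moved the median of all genes by more than 0.015.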

Other observations

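Promoter windows were read for 36 members, 69 windows in all, since a gene can have several. GGAATG was found in 8 of them (11.6%), TGANTCA in 4 (5.80%) and the CArG box in 4 (5.80%), beside 14%, 7.71% and 1.29% of the 35116 windows. The windows with a CArG box belong to ACTN1, FLNA and TGFB1I1, which did not pass the test, and to ITGB6, which was not tested. No window of a called member held one, among 16 windows of members called higher and 20 of members called lower. So few windows cannot tell this from the 1.29% of all windows. The called members ITGA3, ITGA7 and PARVA had no window. These matches describe the letters in these windows only.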
